A study of Mus musculus with 6 samples.

Results

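The genes described here are receptors, ligands and surface antigens through which CD4+ T cells sense and signal to other cells: interleukin and interferon receptors, chemokines and their receptors, the tumor necrosis factor (TNF) family, and genes with a CD number. They were taken by symbol from the deposited gene table, as symbols that begin with Il, Cd, Ccl, Ccr, Cxcl, Cxcr or Csf and a digit, or with Tnf or Ifn. Of the 54 genes so matched, 14 were left out beforehand (Il2, Il17f, Il1rl1, Cd63, Cd63-ps, Cd69, Cd74, Ccl3, Ccl4, Ccl22, Ccr7, Cxcr4, Csf2rb and Csf2rb2), which left 40 of the 2387 genes of the table. The rule uses symbols alone, but the genes were chosen with earlier results of these data known. The table itself, however, held only genes with a P value below 0.05 between the genotypes, so each of the 40 was present because its means differed, and a receptor that is not named was not analysed here.

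RNA-seq compared CD4+ cells of 2 genotypes, with 3 libraries each from different mice, to find what loss of the coactivator SRC2 (gene Ncoa2) alters during differentiation of induced regulatory T cells (iTregs). Naive CD4+ T cells were taken by negative selection from the spleens of Foxp3YFP-Cre or SRC2fl/fl/Foxp3YFP-Cre mice, all on the C57BL/6j background. They were cultured for 36 hours with anti-CD3, anti-CD28, TGFβ and antibodies that block IL-4 and IFNγ. Both genotypes carry the Cre, which the Foxp3 gene drives, so the floxed Ncoa2 is deleted only as a cell turns on Foxp3, and no sort of Foxp3+ cells after culture is described. Each value below is a mean over the 3 libraries of a genotype in CPM, reads scaled to a common library total. Values of single libraries were not analysed here, which leaves depth and spread unknown, so no SD is given and no difference below was tested. Ratios are log2 of mean CPM in SRC2fl/fl/Foxp3YFP-Cre over mean CPM in Foxp3YFP-Cre cells. In such bulk RNA, fewer cells of a kind and less RNA per cell cannot be told apart.

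The targeted gene Ncoa2 had 127 CPM in SRC2fl/fl/Foxp3YFP-Cre and 164 CPM in Foxp3YFP-Cre cells, a log2 ratio of -0.36, so most of its RNA-seq signal was still present. By qPCR, the paper reported a strong reduction of Ncoa2 mRNA in polarized SRC2fl/fl/Foxp3YFP-Cre cells. From its RNA-seq it also counted Ncoa2 with the genes lowered most, and by immunoblot it reported a lack of SRC2 protein in splenic Tregs. A mean over the whole gene does not show which exons the reads cover. Foxp3 had 42.4 and 82.5 CPM. Of 16 genes that mark T cells, Cd28 alone was in the table, so the labelled cell type could not be checked further. The table held 14.8% of all CPM of SRC2fl/fl/Foxp3YFP-Cre and 13.9% of those of Foxp3YFP-Cre cells.

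Many receptors of the interleukin and interferon families, though not those for IL-17 and IL-18, are built from paired chains that switch on JAK kinases and STAT factors. SOCS proteins feed back to stop this signal. TNF family ligands are trimers, on the cell surface or shed from it, that gather their receptors and recruit TRAF adaptors to NF-κB, a pathway that the ubiquitin-editing enzyme A20 limits. In CD4+ T cells, activation through the antigen receptor and CD28 brings on many of these ligands, and cytokine receptors then steer the cell toward a helper or a regulatory fate.

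Of the 40 genes, 30 had a higher and 10 a lower mean in the SRC2fl/fl/Foxp3YFP-Cre genotype, which is near the split of the whole table, where 69.2% of genes were higher and 30.8% lower. Past a 1.4-fold difference, 23 of the 40 were higher and 6 lower, against 26.3% and 14.1% of all table genes. Their median log2 ratio was 0.61, and that of all 2387 genes was 0.33. Relative to this shift of 0.33, the same 30 genes stayed above and the same 10 below the table's median, although 7 of the 30 lay within 0.1 of it, while in the whole table the share of higher genes went from 69.2% to 50.0% by construction. Past 1.4-fold of that median, 15 of the 40 were higher and 10 lower, against 8.09% and 30.8% of all table genes, so the lower count was not above that of the table. The groups by role went different ways. Among the 40, all 6 TNF ligands, all 4 genes of cytokines, Cxcl16 and Il4i1, and both chemokine receptors were higher, whereas 6 of 9 cytokine receptors were lower. The genes left out beforehand, among them Ccr7, Cxcr4 and Il1rl1, were not counted by role, so these are not counts of whole families. Il1a, Cxcl16 and Il4i1, however, could enter the table only through the genotype in which they were higher. The roles are textbook ones and were assigned with earlier results of these data known.

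**Figure D1:**
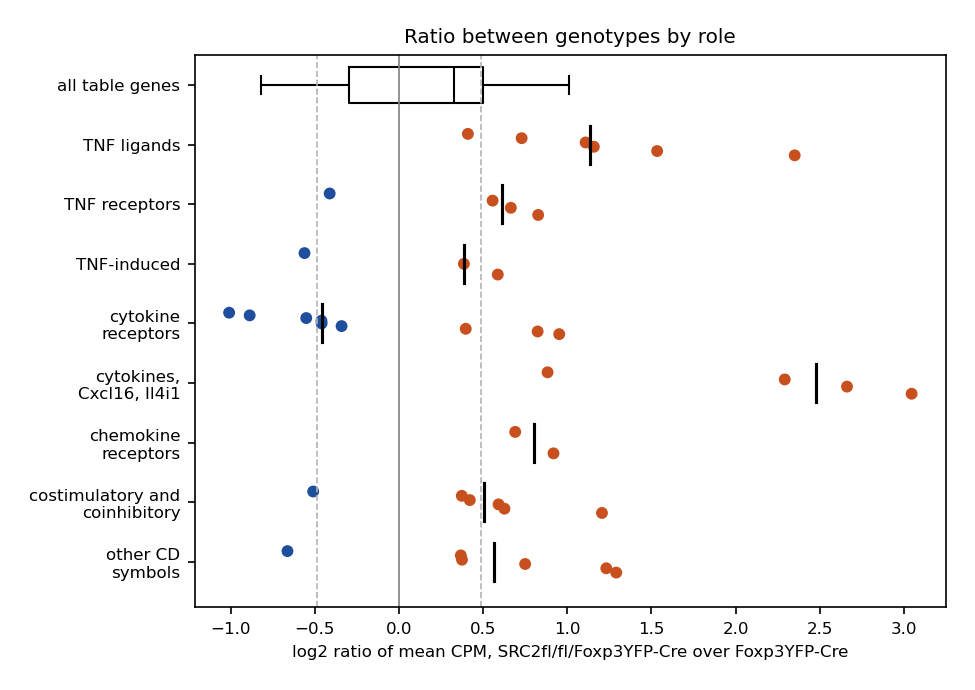
Log2 ratio of mean CPM, SRC2fl/fl/Foxp3YFP-Cre over Foxp3YFP-Cre, for each of the 40 genes by role (orange higher, blue lower), with a black line at each role's median; the top box gives the quartiles and median of all 2387 table genes with whiskers at the 5th and 95th percentiles, and dashed lines mark 1.4-fold. The 6 TNF ligands lie between 0.41 and 2.35, while 6 of 9 cytokine receptors lie below 0.

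All 6 TNF ligands were higher, 5 of them past 1.4-fold. Tnf, the founding inflammatory cytokine of the family, had 42.8 CPM in SRC2fl/fl/Foxp3YFP-Cre and 8.39 CPM in Foxp3YFP-Cre cells, 5.10-fold higher, a log2 ratio of 2.35. Its ratio ranked 23 from the top among the 2387 genes. Tnf is also a main product of macrophages, and the myeloid marker Lyz2 had 45.4 and 0.310 CPM, while the class II gene H2-Ab1 had a log2 ratio of 5.55. Lyz2 and H2-Ab1 could enter the table only through the genotype in which they were higher. The part of other cells in the Tnf value was not tested. Tnfsf14, which encodes LIGHT, a ligand of HVEM and the lymphotoxin β receptor, had 29.9 and 10.3 CPM, 2.90-fold higher, a log2 ratio of 1.53. Tnfsf9, the 4-1BB ligand, had 15.8 and 7.06 CPM, a log2 ratio of 1.16. For Cd70, the ligand of CD27, the means were 8.28 and 3.84 CPM, a log2 ratio of 1.11. These 4 ligands were all more than 2-fold higher, as were 5.24% of all table genes.

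Cd40lg, with which T cells help B cells and dendritic cells, had 37.4 CPM in SRC2fl/fl/Foxp3YFP-Cre and 22.6 CPM in Foxp3YFP-Cre cells, a log2 ratio of 0.73. Tnfsf11, which encodes RANKL, had 232 and 174 CPM, a log2 ratio of 0.41, close to the table's median. Per kilobase of annotated exon, Tnfsf11 was nevertheless at the highest level of the 40 genes in both genotypes, with 104 and 78.0 CPM per kilobase, against 26.1 and 5.12 for Tnf. Lta, the lymphotoxin α gene beside Tnf, falls outside the symbol rule and had 186 and 108 CPM, a log2 ratio of 0.79. It was one of the 2 genes in the table among 9 further TNF family genes, and the other, the receptor Relt, had a log2 ratio of 0.75.

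Tnfsf9, Cd70 and Tnfsf14 are neighbors on chromosome 17 of GRCm38 in the GENCODE M21 annotation. Tnfsf9 lies at chr17:57105325-57107757 on the plus strand, Cd70 at chr17:57145997-57149777 on the minus strand and Tnfsf14 at chr17:57189492-57194177 on the minus strand. Gaps of 38.2 and 39.7 kb part them, and no other protein-coding gene is annotated in the stretch. Tnf lies on the same chromosome at chr17:35199381-35202007, 21903 kb away. Thus 3 adjacent ligand genes, on both strands, had log2 ratios between 1.11 and 1.53. Exons of Tnfsf9 share 14.9% of their bases with the noncoding gene Gm11110 on the opposite strand, and since strand is not given for the counting, reads of the 2 cannot be parted.

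Promoter sequences were at hand for 26 of the 40 genes, in 28 windows of the 250 bases before a transcription start (RefSeq, GRCm38.p6). Those of Tnf, Tnfsf11 and Tnfsf14, the TNF ligands with a window, and that of Tnfaip3, which was lower, are shown. The study places SRC2 together with NFAT1 at the promoter of another gene, Nr4a2. Its signals there lay at distal elements and, for SRC2, not in the proximal regions. The windows here hold only the 250 bases before a start, so they do not cover a matching stretch. All 4 genes are on the minus strand, each sequence reads 5′ to 3′ toward the start, and capitals mark the NFAT core GGAAA on either strand, which also holds the GGAA of ETS factors. The windows are chr17:35202008-35202257 for Tnf, chr14:78308044-78308293 for Tnfsf11, chr17:57194182-57194431 for Tnfsf14 and chr10:19015411-19015660 for the upstream of 2 RefSeq starts of Tnfaip3. In GENCODE M21, Tnfaip3 reaches farther upstream, to chr10:19015657, so nearly all of its window lies inside the gene as annotated there.
Tnf: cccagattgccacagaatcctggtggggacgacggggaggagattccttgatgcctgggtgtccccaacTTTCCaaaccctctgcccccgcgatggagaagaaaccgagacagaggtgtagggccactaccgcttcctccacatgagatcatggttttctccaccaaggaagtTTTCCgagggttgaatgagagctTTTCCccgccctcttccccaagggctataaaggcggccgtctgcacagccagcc
Tnfsf11: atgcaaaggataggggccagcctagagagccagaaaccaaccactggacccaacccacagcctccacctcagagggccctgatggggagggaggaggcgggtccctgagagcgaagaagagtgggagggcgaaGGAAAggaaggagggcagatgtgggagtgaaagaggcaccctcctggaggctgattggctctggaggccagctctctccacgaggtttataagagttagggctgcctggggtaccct
Tnfsf14: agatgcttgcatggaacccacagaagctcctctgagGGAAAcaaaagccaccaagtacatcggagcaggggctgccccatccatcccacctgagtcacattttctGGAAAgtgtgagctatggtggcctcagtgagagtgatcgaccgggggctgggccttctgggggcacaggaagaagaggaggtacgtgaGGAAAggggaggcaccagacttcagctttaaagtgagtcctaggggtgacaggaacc
Tnfaip3: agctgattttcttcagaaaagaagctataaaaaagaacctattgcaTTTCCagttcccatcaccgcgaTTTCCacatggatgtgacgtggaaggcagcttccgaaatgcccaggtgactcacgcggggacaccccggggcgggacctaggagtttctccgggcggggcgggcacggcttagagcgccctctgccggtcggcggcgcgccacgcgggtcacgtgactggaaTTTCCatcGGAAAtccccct

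The NFAT core was found 3 times before Tnf, 3 times before Tnfsf14, 1 time before Tnfsf11 and 4 times in the window shown for Tnfaip3. The window of the other Tnfaip3 start held 0. Among the windows shown, the core was thus found before both higher and lower genes. It was present in 18 of the 28 windows, in 15 of 22 windows of higher and 3 of 6 windows of lower genes, and in 55.6% of all 32851 promoter windows. The Nr4a element AAAGGTCA was in 1 of the 28, before Tnfaip8l2, and in 1.34% of all windows. The AP-1 element TGANTCA was in 6 of the 28, before Ccr4, Cd80, Il1a, Il9, Tnfsf14 and Tnfaip3, and in 6.75% of all. The κB consensus was in 2 of the 28, before Cd151 and Tnfaip3, and in 7.25% of all, and 1 match before Tnfaip3 overlaps an NFAT core. Both strands were searched. A match of so few letters is not evidence of binding.

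**Figure D2:**
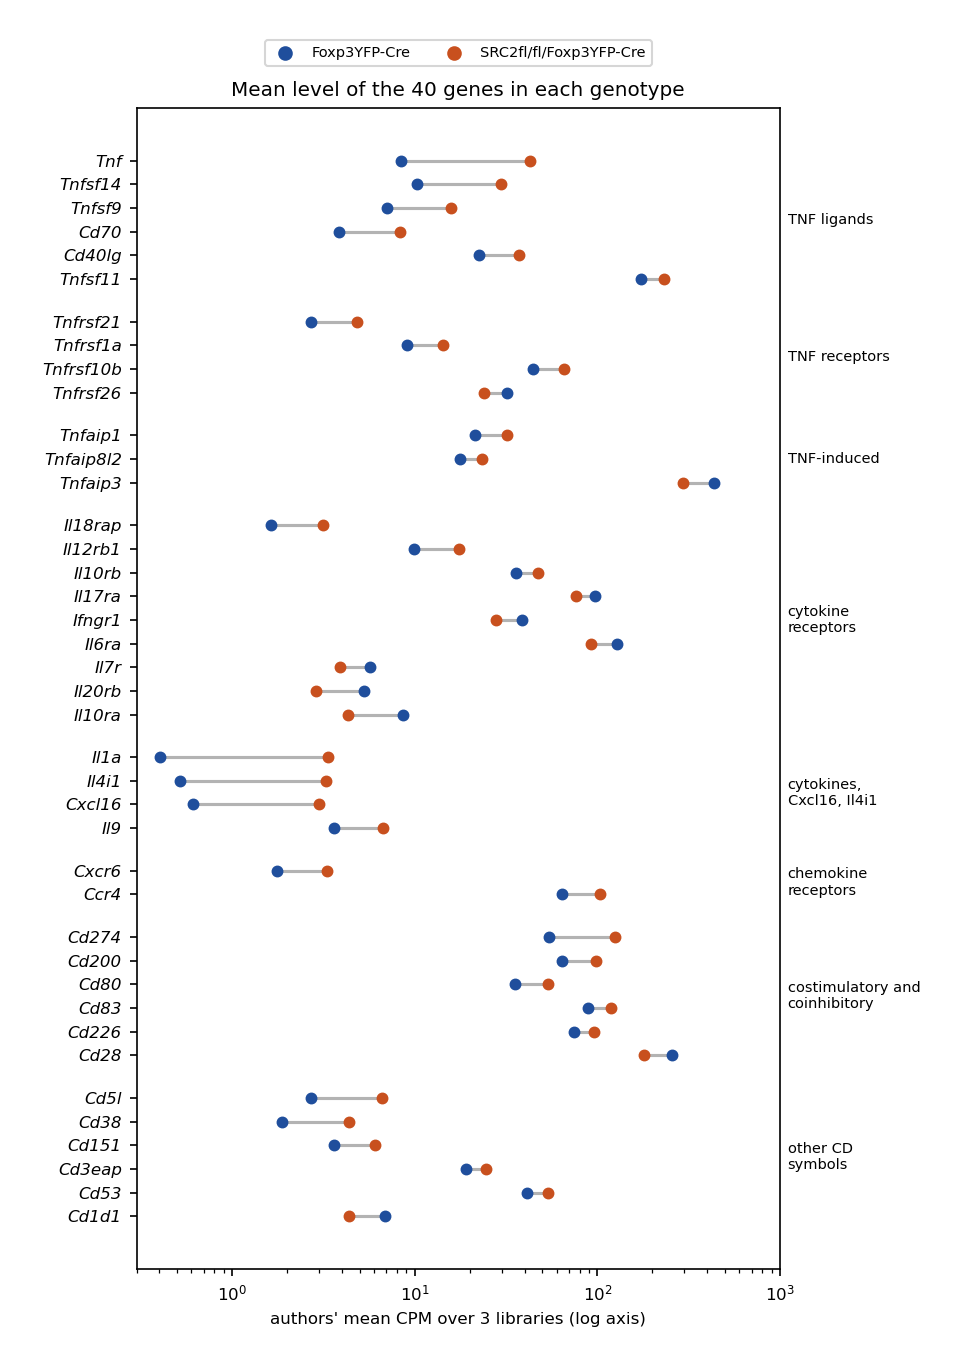
Mean CPM over 3 libraries (log axis, no error bars because single libraries were not analysed) of the 40 genes in Foxp3YFP-Cre (blue) and SRC2fl/fl/Foxp3YFP-Cre (orange) cells, grouped by role. For Tnf the means are 8.39 and 42.8 CPM, and the blue point lies to the right of the orange one for 10 genes, of which 6 are cytokine receptors.

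TNF receptors and the proteins downstream were split. Tnfrsf1a, the main receptor for TNF itself, had 14.3 CPM in SRC2fl/fl/Foxp3YFP-Cre and 9.04 CPM in Foxp3YFP-Cre cells, a log2 ratio of 0.66. Tnfrsf10b, the mouse receptor for the death ligand TRAIL, had 65.5 and 44.6 CPM, a log2 ratio of 0.56. Tnfrsf21, the death receptor DR6, was at 4.82 and 2.72 CPM, a log2 ratio of 0.83. Tnfrsf26 was the lower member, with 24.0 and 32.0 CPM and a log2 ratio of -0.41. It belongs to a cluster of related mouse receptor genes, among which the E/M quantification would divide shared reads by estimate, so its value is uncertain.

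Tnfaip3 encodes A20, the enzyme that restrains NF-κB downstream of TNF receptors and the antigen receptor. It lies at chr10:19000910-19015657 on the minus strand and had 293 CPM in SRC2fl/fl/Foxp3YFP-Cre and 433 CPM in Foxp3YFP-Cre cells, 1.48-fold lower, a log2 ratio of -0.56. Thus Tnfaip3 and Tnf, whose signal induces it, differed in opposite directions. Tnfaip8l2, which encodes TIPE2, an inhibitor of immune receptor signaling, had 23.2 and 17.8 CPM, a log2 ratio of 0.39. Tnfaip1, an adaptor of a cullin ubiquitin ligase, had 32.1 and 21.4 CPM, a log2 ratio of 0.59. The name TNF-induced thus covers 3 unrelated proteins with no common direction.

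Of 33 genes listed for TNF receptor signaling to NF-κB, 12 were in the table, 8 higher and 4 lower, which is near the table's split of 69.2% and 30.8%, with a median log2 ratio of 0.32, that of the table being 0.33. Nfkbie, an NF-κB inhibitor, had 104 CPM in SRC2fl/fl/Foxp3YFP-Cre and 65.0 CPM in Foxp3YFP-Cre cells, a log2 ratio of 0.68. Bcl3, a nuclear cofactor of NF-κB, had 25.2 and 17.0 CPM, a log2 ratio of 0.57. Nfkbiz, a nuclear IκB protein, was lower, with 41.5 and 61.8 CPM and a log2 ratio of -0.57.

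Among the 40 genes, cytokine receptors were the group with most lower genes. Il10ra, the ligand-binding chain of the IL-10 receptor, had 4.29 CPM in SRC2fl/fl/Foxp3YFP-Cre and 8.63 CPM in Foxp3YFP-Cre cells, a log2 ratio of -1.01, and was the one gene of the 40 that was more than 2-fold lower. Il10rb, the second chain of the same receptor, was higher instead, with 47.4 and 36.0 CPM and a log2 ratio of 0.40. The 2 chains of a receptor through which IL-10 acts on Tregs and macrophages thus went opposite ways. Il10rb is shared with other receptors of the family, and 14.9% of its exon bases are also annotated to the overlapping gene Gm21970 on the same strand. Il20rb, a chain of the receptors for IL-20 family cytokines, had 2.87 and 5.31 CPM, a log2 ratio of -0.89.

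The receptors for IL-6, IL-7, IL-17 and IFNγ were each lower to a smaller extent. Il6ra, the IL-6 binding chain, whose signal favors Th17 over Treg fate, had 92.9 CPM in SRC2fl/fl/Foxp3YFP-Cre and 128 CPM in Foxp3YFP-Cre cells, a log2 ratio of -0.46. Ifngr1, the binding chain of the IFNγ receptor, had 28.0 and 38.5 CPM, also -0.46. Il17ra had 76.3 and 96.7 CPM, a log2 ratio of -0.34, the smallest difference among the 40. Il7r, which naive T cells need for survival, had 3.88 and 5.69 CPM, a log2 ratio of -0.55.

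Beside Il10rb, the higher receptor chains were those for IL-12, IL-23 and IL-18. Il12rb1, shared by the IL-12 and IL-23 receptors, had 17.5 CPM in SRC2fl/fl/Foxp3YFP-Cre and 9.86 CPM in Foxp3YFP-Cre cells, a log2 ratio of 0.82. Il18rap, the signaling partner chain of the IL-18 receptor, had 3.15 and 1.63 CPM, a log2 ratio of 0.95. The median log2 ratio of the 9 cytokine receptors was -0.46. Past 1.4-fold, 3 were lower and 2 higher, against 14.1% and 26.3% of all table genes. The 3 lower ones, Il10ra, Il20rb and Il7r, had low means, at most 8.63 CPM in either genotype. Il18rap, among the 2 higher ones, could enter the table only through the genotype in which it was higher.

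Downstream of many of these receptors, but not of Il17ra or Il18rap, lie JAK and STAT proteins. The JAK, STAT and SOCS list had 8 of 26 genes in the table, 4 higher and 4 lower, where 69.2% and 30.8% of all table genes were. Of the 6 SOCS family genes in the table, Cish included, 4 were lower and 2 higher, a count made after the values were seen. Socs3, which limits IL-6 signaling, had 9.91 CPM in SRC2fl/fl/Foxp3YFP-Cre and 15.5 CPM in Foxp3YFP-Cre cells, a log2 ratio of -0.65. Socs5 had 27.2 and 16.6 CPM, a log2 ratio of 0.71. Socs4, its close relative, had a log2 ratio of 0.51.

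Among cytokines and chemokines, the largest ratios rested on very low means. Il1a, the alarmin IL-1α, had 3.35 CPM in SRC2fl/fl/Foxp3YFP-Cre and 0.406 CPM in Foxp3YFP-Cre cells, a log2 ratio of 3.05, the highest of the 40. Cxcl16, the ligand of CXCR6, had 3.01 and 0.614 CPM, a log2 ratio of 2.29, and 18.3% of its exon bases overlap Zmynd15 on the opposite strand. Il4i1, an IL-4-induced amino acid oxidase of antigen-presenting cells, had 3.28 and 0.518 CPM, a log2 ratio of 2.66. Of its exon bases, 83.9% are also annotated to Tbc1d17 on the opposite strand, so its value is uncertain. Il9, the cytokine of Th9 cells, had 6.70 and 3.63 CPM, a log2 ratio of 0.88.

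After addition of 1 CPM to either mean, the log2 ratio of Il1a went from 3.05 to 1.63, that of Il4i1 from 2.66 to 1.49 and that of Cxcl16 from 2.29 to 1.31. Tnf kept 2.22 and Tnfsf14 1.45, since their means were higher. With 5 CPM added, Tnf still had a log2 ratio of 1.84, Tnfsf14 1.19 and Cd274 1.14, whereas the other 7 of the 10 highest ratios came to between 0.45 and 0.78.

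**Figure D3:**
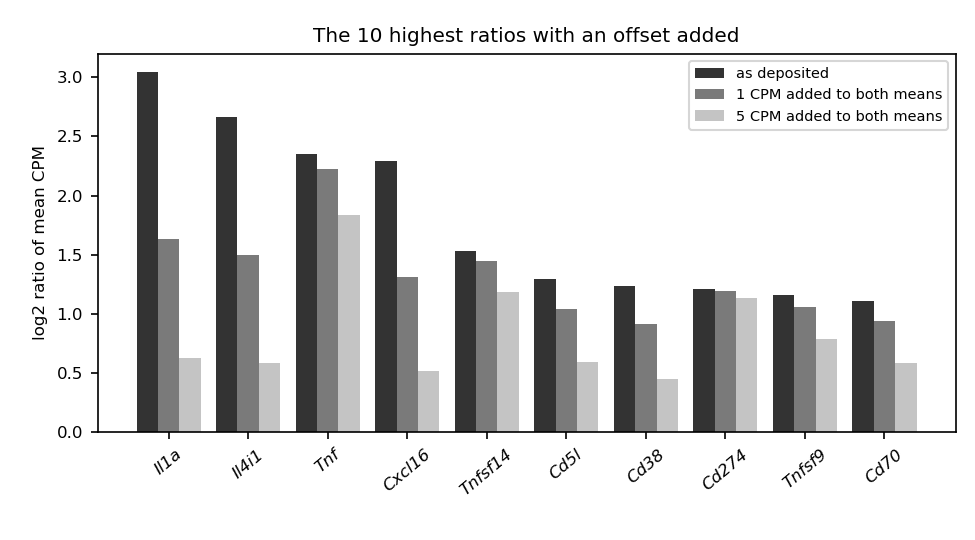
Log2 ratio of mean CPM for the 10 genes with the highest ratio among the 40, as deposited (dark) and with 1 CPM (middle gray) or 5 CPM (light gray) added to both means. Tnf, Tnfsf14 and Cd274 stay above 1 on the log2 scale with 5 CPM added, and Il1a drops from 3.05 to 0.63.

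Both chemokine receptors among the 40 genes were higher, while Ccr7 and Cxcr4 were left out beforehand. Ccr4, which recognizes CCL17 and CCL22 and marks Th2 cells and Tregs, had 103 CPM in SRC2fl/fl/Foxp3YFP-Cre and 63.8 CPM in Foxp3YFP-Cre cells, a log2 ratio of 0.69. Cxcr6, the receptor for CXCL16, had 3.33 and 1.76 CPM, a log2 ratio of 0.92. Receptor and ligand of the CXCL16 pair were therefore both in the table and both higher, each from means below 5 CPM in both genotypes.

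Among costimulatory and coinhibitory antigens, Cd28 was the lower one. It encodes the receptor that gives T cells their second signal and that anti-CD28 engaged in these cultures, with 180 CPM in SRC2fl/fl/Foxp3YFP-Cre and 256 CPM in Foxp3YFP-Cre cells, 1.42-fold lower, a log2 ratio of -0.51. Cd80, a ligand of CD28 and CTLA-4, was higher, with 53.4 and 35.4 CPM and a log2 ratio of 0.59. Cd274, which encodes PD-L1, the ligand of PD-1, lies at chr19:29367455-29388095 on the plus strand and had 125 and 54.3 CPM, 2.31-fold higher, a log2 ratio of 1.21. This ratio hardly moved with an offset, and 14.1% of the exon bases of Cd274 overlap an antisense gene. Cd200, the ligand of an inhibitory receptor on myeloid cells, had 98.7 and 63.9 CPM, a log2 ratio of 0.63.

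Cd83 and Cd226 differed by little more than the table's median. Cd83, a surface protein of activated dendritic cells and T cells, had 118 CPM in SRC2fl/fl/Foxp3YFP-Cre and 88.4 CPM in Foxp3YFP-Cre cells, a log2 ratio of 0.42. For Cd226, an activating receptor that competes with TIGIT, the means were 96.3 and 74.4 CPM, a log2 ratio of 0.37. Per kilobase of exon, Cd28 was at 29.3 and 41.8 CPM, Cd274 at 34.6 and 15.0 and Cd83 at 46.0 and 34.4, so the level of Cd274 passed that of Cd28 in SRC2fl/fl/Foxp3YFP-Cre cells alone.

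The remaining CD symbols share a naming system and no function. Cd5l, a scavenger protein that macrophages secrete, had 6.61 CPM in SRC2fl/fl/Foxp3YFP-Cre and 2.70 CPM in Foxp3YFP-Cre cells, a log2 ratio of 1.29. Cd38, an NAD-consuming ectoenzyme of activated lymphocytes, had 4.39 and 1.87 CPM, a log2 ratio of 1.23. Of the tetraspanins, Cd151 had 6.10 and 3.63 CPM and Cd53 had 53.4 and 41.4 CPM, log2 ratios of 0.75 and 0.37. Cd3eap, in spite of its symbol a subunit of RNA polymerase I, had 24.7 and 19.0 CPM, a log2 ratio of 0.37. Cd1d1, which presents lipids to NKT cells, was lower, with 4.34 and 6.87 CPM and a log2 ratio of -0.66, but it has a near-identical copy, Cd1d2, with which it can share reads.

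Several of the higher genes, Tnf, Cd80, Cd83, Cd274, Cxcl16, Il1a, Il4i1 and Cd5l, are also known from dendritic cells and macrophages. Some markers of those cells were in the table too. Of 11 dendritic cell markers, 5 were in the table, all higher, as were 69.2% of all table genes. All 5 were past 1.4-fold, as were 26.3% of all table genes. These 5 markers were led by H2-Ab1, H2-Aa and Fscn1, with log2 ratios of 5.55, 4.63 and 1.23. Their summed level was 43.8 CPM in SRC2fl/fl/Foxp3YFP-Cre and 13.8 CPM in Foxp3YFP-Cre cells. Of 13 myeloid markers, Lyz2 alone was in the table, with 45.4 and 0.310 CPM. The other markers, among them Itgax, Flt3, Csf1r, Cd14 and Adgre1, were not in the table, and their levels are unknown here. Of the B cell markers, 0 of 12 were in the table, as were 0 of 10 for CD8 T and NK cells and 0 of 11 for mast cells and basophils, and Itga2b, with 2.82 and 1.63 CPM, was the 1 of 9 erythroid and platelet markers. The part of other cells in the higher values was not tested.

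**Figure D4:**
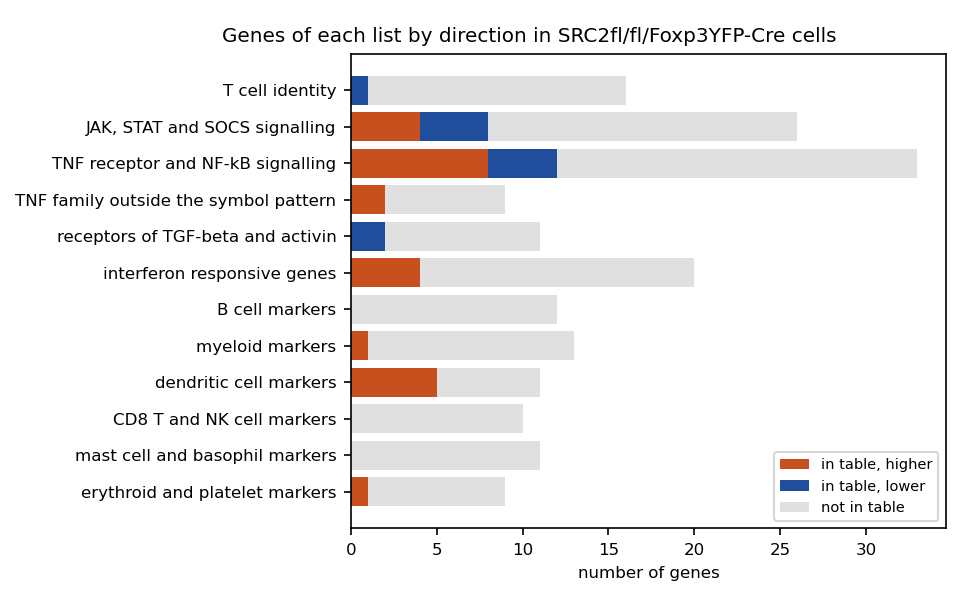
Number of genes of each list that were in the table and higher (orange) or lower (blue) in SRC2fl/fl/Foxp3YFP-Cre cells, and number not in the table (gray), with list names on the vertical axis. The JAK, STAT and SOCS list has 4 higher and 4 lower genes, the TNF receptor and NF-κB list 8 and 4, and all 5 dendritic cell markers in the table are higher. Of all table genes, 69.2% are higher. All 5 dendritic cell markers are also past 1.4-fold, as are 26.3% of all table genes. Of these markers, H2-Ab1 and H2-Aa could enter the table only through the genotype in which they were higher.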

How the data were processed

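Total RNA of CD4+ cells from 3 Foxp3YFP-Cre and 3 SRC2fl/fl/Foxp3YFP-Cre mice was sequenced after 36 hours of Treg polarization. In Partek Flow, the authors mapped the reads to GRCm38, estimated gene abundance by the E/M algorithm and scaled it to CPM plus a small constant. Not given in the sources used here are aligner, annotation and strand setting. The deposited table gives for each of 2387 genes the mean CPM of either genotype, their sum times 3 (a column of totals, matched within a relative difference of 1e-06), and the authors' ratio, fold change, P value and adjusted p. The deposited p-values were read only to learn that all lie below 0.05, and no gene was judged by them or by the authors' ratios. The smallest total was 10.0 CPM over the 6 libraries.

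Log2 ratios were computed from the 2 mean columns with no offset (Python 3.11.15, pandas 2.3.3, numpy 2.4.6). The computation returned known folds put into simulated means without noise, which checks the arithmetic alone. A 1.4-fold difference, the fold of the study's volcano plot, was counted beside the same count over all table genes. With group means alone there is no spread, so no test was run. Reads could not be recovered from means over libraries, so depth and its precision are unknown. All 40 genes and 2346 of the 2387 table symbols matched GENCODE M21, which gave positions, exon overlaps and exon lengths for CPM per kilobase. Promoter windows came from RefSeq. The genes, roles and lists were chosen with earlier results of these data known. All 40 genes are named, and of each other list the count and at most 3 genes of largest absolute log2 ratio, of which 1 is not reported here. Alternatives were offsets, a minimum of 5 CPM, other folds, centring on the table median and restoring the 14 genes left out.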

Additional observations from a re-analysis of the deposited data

How the results depend on the processing

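An offset added to both means cannot change a direction, and no ratio lay between 0 and the table median, so the 30 higher and 10 lower genes are no sign of stability under these settings. Of the 40 genes, 23 higher and 10 lower remained with at least 5 CPM in a genotype, where the 7 genes removed (Il1a, Il4i1, Cxcl16, Cd38, Il18rap, Cxcr6 and Tnfrsf21) were all higher, and 41 were higher and 13 lower with the 14 left-out genes. Counts past the fold were less steady. Higher genes past it went from 23 to 15 on centring and to 10 at 2-fold, where 8.09% and 5.24% of all table genes were past it. Lower genes past it went from 6 to 3 with 5 CPM added, to 10 on centring, to 10 at 1.2-fold and to 1 at 2-fold, where the shares of all table genes were 6.33%, 30.8%, 27.1% and 3.14%. Of the cytokine receptors, the 2 higher past the fold became 1 with 5 CPM added, 1 with the minimum of 5 CPM and 0 at 2-fold, and the 3 lower became 1 with 5 CPM added, 6 on centring, 6 at 1.2-fold and 1 at 2-fold. The table's shares are those just given for lower genes, and for higher genes 11.7% with 5 CPM added, 23.9% with the minimum and 5.24% at 2-fold. These follow from the settings, which move ratios toward 0, shift them all, or move the line. Single ratios moved by more than 1.5-fold in 3 genes with 1 CPM added and in 7 with 5 CPM added.

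No paired analysis was possible because each genotype has a single mean per gene, without replicate numbers. For the same reason leaving out each library and other normalizations were not run. Whether 1 library sets a mean, above all one of a few CPM, cannot be seen in these values.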

Other observations

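Genes of the interferon response and of TGFβ family reception belong to neither the symbol rule nor the pathways described. Of 20 interferon responsive genes, 4 were in the table, each with the higher mean in SRC2fl/fl/Foxp3YFP-Cre cells, as had 69.2% of all table genes. Their median log2 ratio was 0.39, near the 0.33 of the table. Ifih1, a sensor of viral RNA, had 14.5 CPM in SRC2fl/fl/Foxp3YFP-Cre and 10.2 CPM in Foxp3YFP-Cre cells, a log2 ratio of 0.51. Irf9, a transcription factor of type I interferon signaling, had 28.2 and 22.2 CPM, a log2 ratio of 0.35. Of 11 genes for TGFβ and activin receptors and their SMADs, 2 were in the table and both were lower, as were 30.8% of all table genes. Acvr2a, an activin receptor, had 7.71 and 14.4 CPM, a log2 ratio of -0.91. Smad7, a feedback inhibitor that TGFβ induces, had 71.9 and 99.8 CPM, a log2 ratio of -0.47.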
